A study of Mus musculus with 2 samples.

Results

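The genes described are 6 that buffer, sense and move zinc: the metallothioneins Mt1 and Mt2, the zinc-sensing transcription factor Mtf1, the zinc exporter Slc30a1 and the zinc importers Slc39a14 and Slc39a10. They were chosen by gene name, and all 6 were found among the 44291 genes listed in each library. RNA-seq had been performed on primary fibro-adipogenic progenitors (FAPs), mesenchymal cells of skeletal muscle that can become adipocytes, from wild-type mice. One group received platelet-rich plasma (PRP) and the other received vehicle as control, with 1 library in each. Both groups were kept in adipogenic induction medium, in which DMEM and 20% FBS were supplemented with the phosphodiesterase inhibitor IBMX (0.5 mM), the glucocorticoid dexamethasone (0.25 μM) and insulin (10 μg/ml), so the controls carried the same glucocorticoid and insulin exposure. The labels name the agent PRP, whereas the study's text describes exosomes isolated from human PRP. For its FAP transcriptome with vehicle controls, the study names exosomes from young donors. In the study FAPs were sorted from mouse hindlimb muscle, and whether cells of several animals were pooled, as well as the age and sex of the animals behind these libraries, is not given in the labels. Without a replicate no SD and no test between groups can be had, and each value below compares 1 library with 1 other.

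Metallothioneins are small cysteine-rich proteins that bind zinc and copper and release zinc when their thiols are oxidised. When free zinc in the cell is high, MTF1 binds metal response elements (MREs) in promoters and switches on Mt1, Mt2 and Slc30a1, which encodes ZnT1, the exporter of the plasma membrane. Proteins of the SLC30 family (ZnT) carry zinc out of the cytosol, and those of the SLC39 family (ZIP) carry it in. ZIP14, encoded by Slc39a14, also takes up iron and manganese. Glucocorticoids such as dexamethasone are known inducers of Mt1 and Mt2, and metallothioneins, ZIP14 and other zinc transporters have been studied in adipocyte differentiation.

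The sequences before the annotated starts of the MTF1 targets are shown first, because the MRE is the sequence through which zinc reaches these genes. The sequences are from RefSeq on GRCm38.p6 and give the 250 bases before the annotated gene start, with MREs in capitals. An MRE was taken as TGCGCNC or TGCACNC on either strand, and a match of letters is a description, not a bound site. The windows lie at chr8:94172368-94172617 for Mt2, chr8:94178839-94179088 for Mt1 and chr1:191906531-191906780 for Slc30a1, all on the plus strand.
Mt2: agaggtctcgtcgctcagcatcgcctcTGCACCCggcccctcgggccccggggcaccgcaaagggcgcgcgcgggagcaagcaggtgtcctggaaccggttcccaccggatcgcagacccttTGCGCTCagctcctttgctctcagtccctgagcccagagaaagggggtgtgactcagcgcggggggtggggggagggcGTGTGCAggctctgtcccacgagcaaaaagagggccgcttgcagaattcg
Mt1: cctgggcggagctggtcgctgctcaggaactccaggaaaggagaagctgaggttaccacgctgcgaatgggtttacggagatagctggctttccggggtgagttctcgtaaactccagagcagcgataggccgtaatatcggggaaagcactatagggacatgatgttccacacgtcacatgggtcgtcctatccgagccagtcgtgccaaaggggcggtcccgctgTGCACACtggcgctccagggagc
Slc30a1: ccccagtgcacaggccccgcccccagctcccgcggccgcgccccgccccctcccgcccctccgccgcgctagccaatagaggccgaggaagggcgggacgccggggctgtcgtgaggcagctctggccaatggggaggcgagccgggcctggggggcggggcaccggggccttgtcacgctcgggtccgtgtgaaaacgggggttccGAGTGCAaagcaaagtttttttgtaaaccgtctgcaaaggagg

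In these windows Mt2 held 3 MREs, which started at positions -223, -128 and -50 from the gene start, the last of them on the minus strand. Mt1 held 1 MRE at -23, and Slc30a1 held 1 at -43 on the minus strand. Of 32851 mouse promoter windows of this length, 21.4% held at least 1 MRE and 1.26% held at least 3. The share of G and C was 67.6% for Mt2, 58.8% for Mt1 and 71.2% for Slc30a1, against a median of 52.4% over all windows. The background is therefore not one of windows with like base composition. No MRE was found in the window of Mtf1 or in either of the windows of Slc39a10, and Slc39a14 had no entry. The starts that RefSeq and GENCODE M21 give differ for all 5 genes with a window, by a few bases for Mt1 and Slc30a1 and by more for Mt2, Mtf1 and Slc39a10, so the windows describe the RefSeq start.

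In GENCODE M21 the principal transcripts of Mt2 and Mt1 begin before the TATA box letters TATAAA, which lie after 89 bases of the Mt2 transcript and after 128 bases of the Mt1 transcript. Before these letters the Mt2 transcript held 3 MREs and the Mt1 transcript 4. In the first 120 bases, Mt2 held 3 and Mt1 held 4, whereas 0.328% of 17665 principal transcripts held at least 3 and 0.034% held at least 4. MREs of both genes therefore lie before and after the annotated starts, and the windows shown leave out those after the start. The numbers of MREs in the windows of Mt1 and Mt2 are thus not those of the whole promoters.

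Another 3 motifs were searched in the same windows on both strands. The antioxidant response element TGACNNNGC, the site of NRF2, was found once in Mt2 at -79 and once in Slc30a1 at -82, and 10.2% of all windows held it. The STAT motif TTCNNNGAA was found once, in the upstream window of Slc39a10 at -82, against 7.02% of all windows. The E-box CACGTG was found in none of the members' windows, against 6.02% of all.

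**Figure D1:**
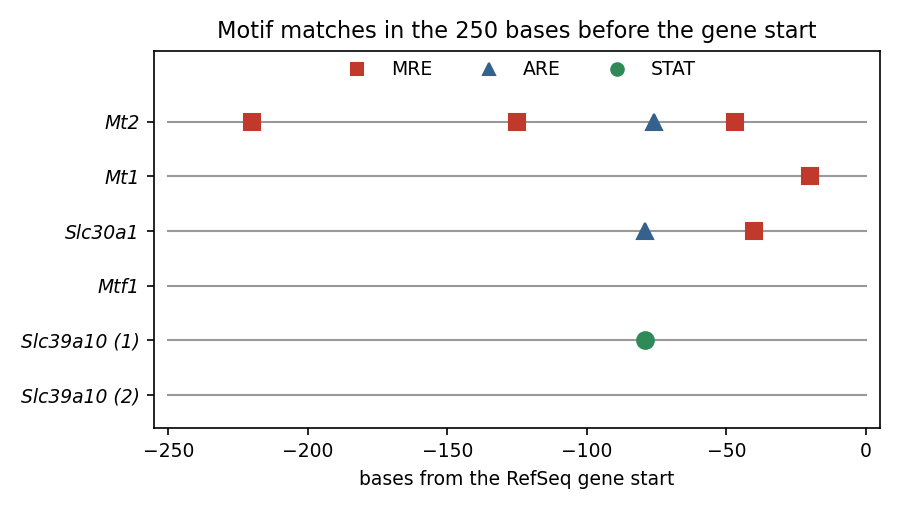
Matches of the metal response element (MRE, squares), antioxidant response element (ARE, triangle) and STAT motif (circle) in the 250 bases before the RefSeq start of 5 genes, by distance from the start in bases. In these windows Mt2 carries 3 MREs, Mt1 and Slc30a1 carry 1 each, and Mtf1 and Slc39a10, drawn with 2 windows, carry none. The windows stop at the RefSeq start, so the MREs between the transcript start and the TATAAA letters (3 in Mt2, 4 in Mt1) are not drawn.

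Gene-assigned reads numbered 40120843 with PRP and 34139741 in the control. The FAP markers Pdgfra, Ly6a, Cd34, Dpt, Gsn, Dcn and Col1a1 were present in both libraries, whereas Lum was at 0.0815 FPKM (PRP) and 0.0718 FPKM (control). All 7 FAP markers with a mean level of 1 FPKM or more were lower with PRP, and the 8 markers summed to 309.0 FPKM there against 516.3 in the control. The 7 adipocyte markers summed to 137.7 and 143.2 FPKM, the 6 endothelial markers to 9.45 and 5.40 FPKM, and the 7 macrophage markers to 10.4 and 10.7 FPKM. Of the 6 adipocyte markers with a mean of 1 FPKM or more, 4 were higher with PRP and 2 lower. Lpl, the most abundant of them, was lower (67.4 and 83.3 FPKM), whereas Fabp4 (40.7 and 33.6) and Pparg (8.69 and 6.55) were higher. Of the endothelial, the macrophage and the myogenic markers 2 each reached a mean of 1 FPKM. Markers above that level were Kdr (4.23 FPKM with PRP and 1.499 in the control) and Tek (4.73 and 3.56) of the endothelial list, Cd68 (4.56 and 2.31) and Lyz2 (4.91 and 7.57) of the macrophage list, and Acta1 (15.1 and 11.1) and Des (2.91 and 3.39) of the myogenic list. Near 0 were Pecam1 at 0.188 and 0.0470 FPKM, Cdh5 at 0.0949 and 0.0976 FPKM, and Ptprc at 0.0109 and 0.0192 FPKM, while Pax7, Myog, Ppbp and Gp9 were at 0 in both libraries. The 6 myogenic markers found summed to 18.3 and 14.7 FPKM, and the 7 platelet and erythroid markers to 0.824 and 0.767 FPKM. The part of these shifts in the values below was not tested, and in bulk RNA fewer cells of a type and less RNA per cell cannot be told apart.

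By deposited FPKM Mt2 was the most abundant of the 6 genes in these cells, Mt1 came second, and the regulator and the transporters were low. FPKM, the deposited unit, is reads scaled to exon length and to the reads assigned in the library, so levels of different genes can be set side by side as far as the exon length used fits the transcripts. Mt2 stood at 68.8 FPKM (95% counting interval 64.2 to 73.7) with PRP and at 49.5 FPKM (45.3 to 54.1) in the control. Mt1 stood at 15.7 FPKM (14.2 to 17.3) and 15.0 FPKM (13.4 to 16.8). These intervals cover counting error only.

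The other 4 genes lay between 1.58 and 3.28 FPKM. With PRP the order was Slc39a14 at 3.28 FPKM (3.04 to 3.53), Mtf1 at 3.05 (2.80 to 3.32), Slc39a10 at 3.01 (2.71 to 3.33) and Slc30a1 at 2.01 (1.75 to 2.30). In the control it was Mtf1 at 2.87 FPKM (2.61 to 3.16), Slc39a10 at 2.85 (2.53 to 3.19), Slc39a14 at 2.79 (2.55 to 3.05) and Slc30a1 at 1.58 (1.33 to 1.86). The intervals of Slc39a14, Mtf1 and Slc39a10 overlapped in each library, so their order is not set at this depth, whereas Slc30a1 lay below all of them. The level of Slc39a14 also depends on its length of 10550 merged bases from 13 transcripts, and no principal transcript length was at hand for it. Among all genes above 0, Mt2 ranked 786 with PRP and 1061 in the control, and Mt1 ranked 3143 and 3240.

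**Figure D2:**
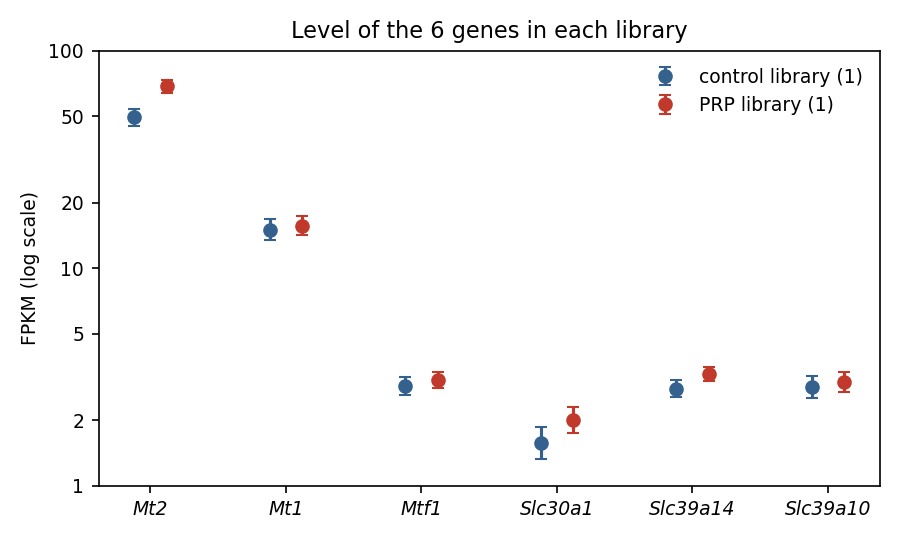
FPKM (log scale) of the 6 genes in the PRP and control libraries, with 1 library per group and bars for the exact 95% counting interval. Mt2 stands above Mt1, and both stand above the 4 other genes, in each library.

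To examine how PRP treatment related to zinc handling, each gene was compared between the libraries. All 6 genes were higher with PRP, none by as much as 2-fold, and the largest difference was that of Mt2 at 1.39-fold. Of all 13401 genes with a mean level of 1 FPKM or more, 50.9% were higher with PRP and 2.83% differed at least 2-fold, against 6 and 0 of the 6 genes. The counting interval of the ratio left out 1 for 3 of the 6 genes (Mt2, Slc30a1 and Slc39a14, all higher), which is no larger a share than the 52.2% of 12367 genes with whole reads for which it did so. In 26.2% of those genes the interval lay above 1. The median log2 difference was 0.12 for the 6 genes and 0.01 for all tested genes.

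**Figure D3:**
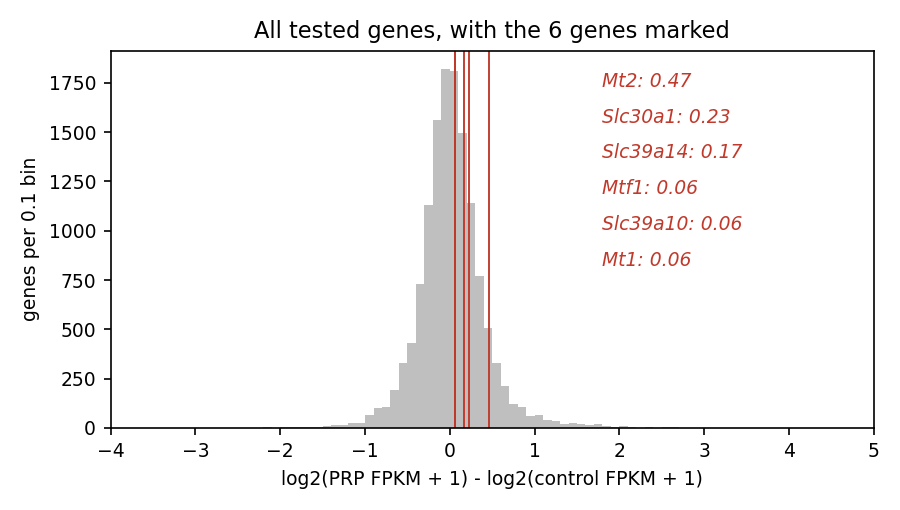
Histogram of the log2 difference of FPKM + 1 between the PRP and control libraries (x axis) for 13401 genes, as genes per bin (y axis), with red lines at the 6 genes. The lines lie between 0.06 and 0.47, inside the bulk of all genes.

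Mt2 encodes the more abundant of the metallothioneins here. It was counted with 1624 reads with PRP and 994 in the control, and its FPKM ratio was 1.39 (1.24 to 1.56), a log2 difference of 0.47. Of all tested genes, 90.7% had a smaller log2 difference. The gene (ENSMUSG00000031762) lies at chr8:94172664-94173568 on the plus strand of GRCm38. An antisense gene, Gm45774, covers 432 bases or 73.5% of its exon length and was listed with 1609 and 986 reads (15.0 and 10.8 FPKM), nearly the read numbers of Mt2 itself. The library kit keeps strand, but whether the counting used it is not given in the sources used here, so reads of Mt2 and of Gm45774 cannot be told apart.

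Mt1 (ENSMUSG00000031765, chr8:94179082-94180327, plus strand) starts 5513 bases beyond the end of Mt2. It was counted with 784 reads with PRP and 640 in the control, and its FPKM ratio was 1.04 (0.897 to 1.21), so a difference was not detectable at this depth. Mt2 differed more than Mt1, since the ratio of Mt2 to Mt1 was 1.33 times as large with PRP as in the control (1.10 to 1.61). For this and the later ratios of 2 genes, how often other gene pairs have an interval that leaves out 1 was not computed. The coding sequences of the 2 genes are 186 bases each and 79.6% identical, but the longest stretch their principal transcripts share is 20 bases. How the counting treated reads that fit both genes is not given in the sources used here.

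The margin of Mt2 over Mt1 depends on the length that reads are divided by. By deposited FPKM, Mt2 was 4.39 times Mt1 with PRP and 3.29 times in the control. The merged exons of the 3 annotated Mt1 transcripts cover the whole gene of 1246 bases, introns included, although the principal transcript has 549 bases. The Mt2 exon length of 588 bases is close to its principal transcript of 511. Divided by the principal transcripts, Mt1 stood at 35.6 and 34.1 and Mt2 at 79.2 and 56.98 in the unit of FPKM, and Mt2 was 2.23 and 1.67 times Mt1. All reads of the merged exons were divided, so any reads from introns of the principal transcript raise these values. The principal lengths also include the bases before TATAAA, 128 for Mt1 and 89 for Mt2. These values are therefore another scaling, not corrected levels. The differences between libraries are not touched by this length.

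**Figure D4:**
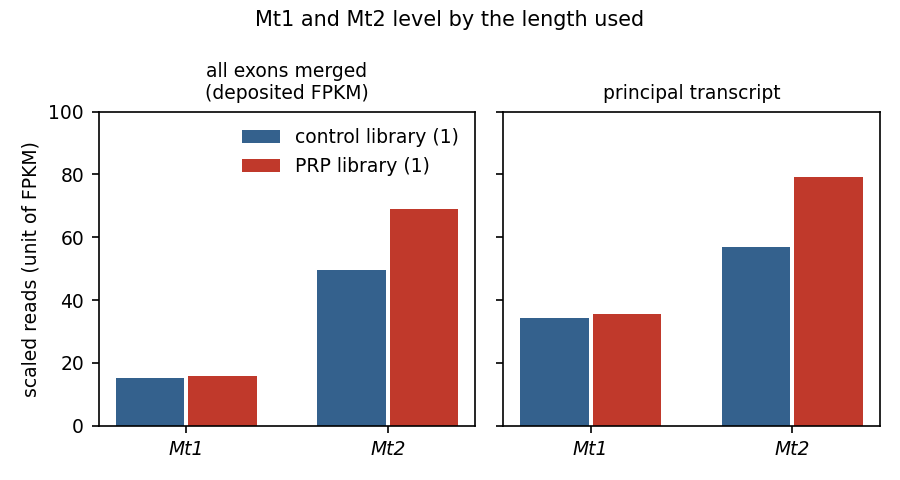
Level of Mt1 and Mt2 in length-scaled reads, in the unit of FPKM (bars, 1 library each) with the merged exon length of the deposited FPKM (left) and with the length of the principal transcript (right). Mt2 stays above Mt1 in both panels, but by 4.39 against 2.23 times with PRP.

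Mt1 and Mt2 together summed to 84.5 FPKM with PRP and 64.6 FPKM in the control, which is 0.0246% and 0.0190% of all FPKM. Mt2 made up 81.4% and 76.7% of that sum. The other metallothioneins of the cluster, Mt3 of the brain and Mt4 of squamous epithelia, were each counted with 2 reads with PRP and 0 in the control. A count of 0 in the control allows up to 0.165 FPKM of Mt3 and 0.442 FPKM of Mt4 at 3 fragments, so no fold is given. Of the genes that flank the cluster, Nup93 and Ogfod1 were lower with PRP, and the interval of Bbs2 took in both 1 and the ratio of Mt2. Nup93, a nuclear pore subunit next to Mt1, had a ratio of 0.759 (0.664 to 0.867), Ogfod1 of 0.835 (0.700 to 0.995) and Bbs2, a gene of the primary cilium, of 1.13 (0.840 to 1.52).

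Mtf1 encodes the zinc sensor itself (ENSMUSG00000028890, chr4:124802104-124849800, plus strand). It was counted with 1090 reads with PRP and 874 in the control, and its FPKM ratio was 1.06 (0.934 to 1.21). A difference was not detectable at this depth. The ratio of Mt2 to Mtf1 was 1.31 times as large with PRP (1.10 to 1.56), whereas that of Mt1 to Mtf1 was 0.982 times (0.805 to 1.20) and that of Slc30a1 to Mtf1 1.21 times (0.935 to 1.56). Of these 3 intervals, that of Mt2 left out 1. Mtf1 shares 8.09% of its exon length with 1110065P20Rik on the other strand, which was listed with 91 and 70 reads.

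Slc30a1 encodes ZnT1, which moves zinc out across the plasma membrane (ENSMUSG00000037434, chr1:191906767-191913247, plus strand). It was counted with 423 reads with PRP and 282 in the control, the fewest of the 6 genes, and its FPKM ratio was 1.28 (1.03 to 1.59). The lower bound lies close to 1. The antisense gene 1700034H15Rik shares 8.92% of its exon length and was listed with 118 and 83 reads.

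Slc30a1 was the only tested ZnT gene that was higher with PRP. Of the 10 ZnT genes 5 had a mean level of 1 FPKM or more, and the other 4 were lower, 3 of them with an interval below 1. Slc30a4, an exporter into vesicles, stood at 3.15 FPKM (PRP) and 4.07 FPKM (control), a ratio of 0.773 (0.666 to 0.896). Slc30a7, which loads zinc into the Golgi apparatus, had 0.942 and 1.31 FPKM, a ratio of 0.716 (0.593 to 0.864). Slc30a9 had a ratio of 0.870 (0.796 to 0.9501), and Slc30a5, a partner of ZnT6 in the secretory pathway, one of 0.899 (0.784 to 1.03).

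The plasma membrane exporter differed beyond counting error from the other tested ZnT genes. This is a low bar, since the interval of a single gene left out 1 for 52.2% of 12367 genes. The ratio of Slc30a1 to the sum of the other 4 tested ZnT genes was 1.53 times as large with PRP as in the control (1.22 to 1.92), and against each of the 4 alone it lay between 1.42 and 1.79 times with every interval above 1. Slc30a1 made up 14.4% of the summed ZnT FPKM with PRP and 9.89% in the control, while the sum itself was 13.997 against 15.928 FPKM. The median log2 difference of the tested ZnT genes was -0.16, but -0.09 with a pseudocount of 5 and -0.06 over all ZnT genes without a filter.

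Slc39a14 and Slc39a10 encode the zinc importers ZIP14 and ZIP10 of the plasma membrane. Slc39a14 (ENSMUSG00000022094, chr14:70303469-70351425, minus strand) was counted with 1387 reads with PRP and 1006 in the control, and its FPKM ratio was 1.17 (1.04 to 1.32). Slc39a10 (ENSMUSG00000025986, chr1:46807544-46892852, minus strand) was counted with 735 and 593 reads, and its ratio was 1.05 (0.903 to 1.23), not detectable as a difference. The ratio of Slc39a14 to Slc39a10 was 1.09 with PRP and 0.980 in the control, and the change between the libraries (1.11 times, 0.915 to 1.35) was within counting error.

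By deposited FPKM, both importers were minor members of the ZIP family in these cells. Of the 14 ZIP genes 10 had a mean level of 1 FPKM or more, of which 7 were higher and 3 lower with PRP, with none at 2-fold. Their median log2 difference was 0.12, but 0.06 without a filter and -0.13 when only genes with a mean of 5 FPKM or more were kept. Slc39a7, which releases zinc from the endoplasmic reticulum, led with 306.8 FPKM (PRP) and 295.6 FPKM (control), or 73.4% of the summed ZIP FPKM in each library. It shares 80.7% of its exon length with Gm20427 on the same strand, so its level is uncertain.

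The ZIP genes went both ways, with the interval above 1 for 5 of the 10, below 1 for 2 and across 1 for 3. Of all genes with whole reads, 52.2% had an interval that left out 1 and 26.2% one above 1. Slc39a6 (ZIP6, close kin of ZIP10) had 48.1 and 35.0 FPKM, a ratio of 1.37 (1.31 to 1.45), and Slc39a8 (ZIP8, close kin of ZIP14) had 3.47 and 2.51 FPKM, a ratio of 1.38 (1.20 to 1.59). Lower with PRP were Slc39a1, a widely expressed importer, with a ratio of 0.803 (0.753 to 0.856), and Slc39a13, a transporter needed in connective tissue, with a ratio of 0.740 (0.662 to 0.828). Without Slc39a7 the ZIP genes summed to 111.1 and 107.1 FPKM, so the family total differed little. Slc39a9 had a ratio of 1.22 (1.06 to 1.40), Slc39a11 of 1.17 (0.963 to 1.42) and Slc39a3 of 0.941 (0.745 to 1.19).

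**Figure D5:**
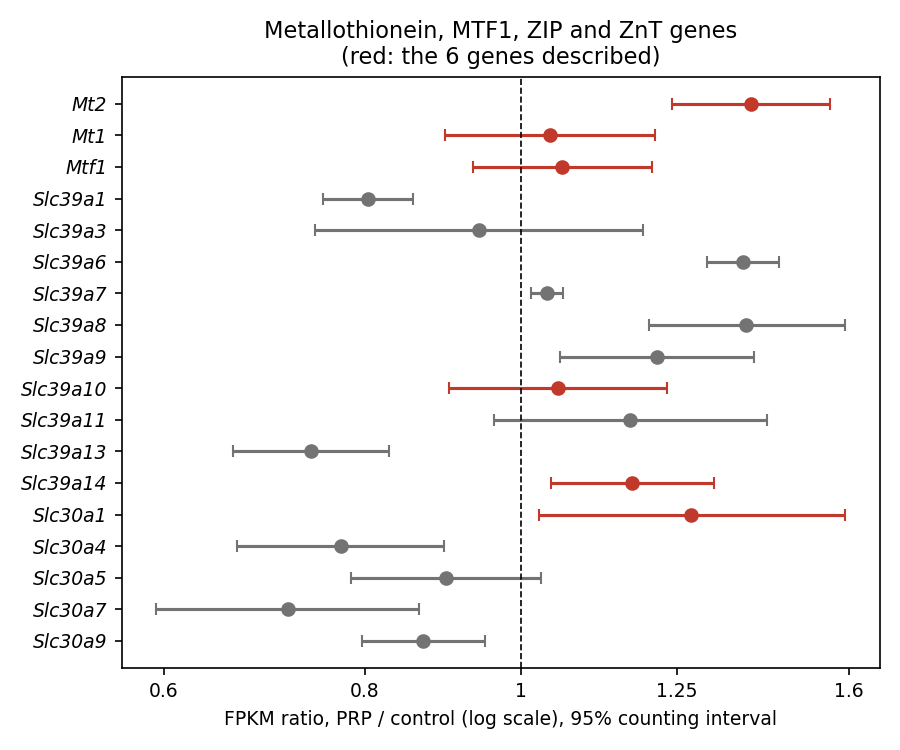
FPKM ratio of the PRP library over the control library (x axis, log scale) with the exact 95% counting interval for Mt1, Mt2, Mtf1 and every ZIP and ZnT gene with a mean level of 1 FPKM or more, with the 6 genes described in red. Mt2, Slc30a1 and Slc39a14 lie above 1 with their whole interval, and Slc30a1 is the one ZnT gene to the right of the line.

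Genes that share regulators with the metallothioneins were then listed. Of 6 other genes linked to MTF1, 5 were tested, and all 5 were higher with PRP with an interval above 1, against 26.2% of all genes with whole reads, and with a median log2 difference of 0.34. The untested gene, the iron exporter Slc40a1, was lower with PRP, at 0.122 against 0.228 FPKM (ratio 0.535, 0.299 to 0.938). At least 2-fold higher were Gclc, the catalytic subunit of glutathione synthesis, at 66.5 against 23.8 FPKM (2.79-fold, 2.63 to 2.95), and Pgf, placental growth factor, at 3.14 against 0.928 FPKM (3.39-fold, 2.44 to 4.79). Gclc is also a target of NRF2. The 8 NRF2 targets had a median log2 difference of 1.12, 7 were higher, and 4 were at least 2-fold higher, namely Gclc, Txnrd1 (110.6 against 44.5 FPKM), Srxn1 (226.0 against 65.7 FPKM) and Slc7a11 (7.98 against 0.766 FPKM). Of all 13401 tested genes, 50.9% were higher with PRP and 2.83% differed at least 2-fold in either direction. Mt1 at 0.06 and Mt2 at 0.47 on the log2 scale lay below the median of the NRF2 targets.

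Lists for the other inducers and regulators of metallothioneins, and for copper, had medians of 0.02 to 0.12, against 0.01 for all tested genes, and some depended on the filter. The 10 glucocorticoid response genes had 6 higher and 4 lower, none at 2-fold, with a median log2 difference of 0.12, which was 0.32 with a filter at 5 FPKM. Their interval lay above 1 for 4, below 1 for 2 and across 1 for 4. Of all genes with whole reads, 52.2% had an interval that left out 1 and 26.2% one above 1. Of 10 genes of the IL-6 and STAT3 response 8 were tested, with 5 higher and 3 lower, and the interval lay above 1 for 3 and below 1 for 3. None reached 2-fold on the log2(FPKM + 1) scale. Lif came close at 0.996 there, and its FPKM ratio was 2.67 (2.15 to 3.34), at 3.94 against 1.47 FPKM. The median of this list was 0.10, which was 0.20 without a filter and 0.03 with a filter at 5 FPKM. The 6 other regulators of metallothionein transcription (Nr3c1, Stat3, Nfe2l2, Sp1, Usf1 and Usf2) had 3 higher and 3 lower. Their median was 0.02, which was -0.01 on rescaling without mitochondrial and the most abundant genes. This median hides differences of single genes. The interval lay above 1 for Nfe2l2, the gene of NRF2, with an FPKM ratio of 1.75 (1.66 to 1.85). It lay below 1 for Stat3, with a ratio of 0.848 (0.802 to 0.896), and across 1 for the other 4. Of 10 copper handling genes 9 were tested, with 5 higher and 4 lower and a median of 0.04, which was 0.01 without a filter.

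For the metallothioneins the genes of most like pattern were found among tested genes within 2-fold of their mean FPKM, by the difference in log2 values over the 2 libraries. For Mt1 these were Rab7-ps1, Gpalpp1 and Nfil3 of 3623 candidates, each within 0.000346. For Mt2 they were Nsrp1, Topors and Dnttip2 of 1360 candidates, each within 0.00634. With 2 libraries this likeness is that of a single difference.

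The study names let-7 and miR-16 as cargo of the exosomes, so the longest annotated 3′UTR of each of the 6 genes was searched for the seed matches. The mature mouse sequences from RefSeq are shown with the seed, bases 2 to 8, in capitals, followed by the matches in the members' GENCODE M21 3′UTRs with the matching letters in capitals.
mmu-let-7f-5p: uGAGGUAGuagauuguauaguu
mmu-miR-16-5p: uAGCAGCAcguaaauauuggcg
Slc30a1 let-7 match: aaagctgttcCTACCTCaccatgag
Slc30a1 miR-16 match: ttgttttctcTGCTGCTgaggaata
Slc39a10 miR-16 match: ctttaacagtTGCTGCTagtatttt

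Slc30a1 held 1 let-7 match (CTACCTC) at base 3373 and 1 miR-16 match (TGCTGCT) at base 565 of a 3′UTR of 3492 bases, and it was 1.28-fold higher with PRP. Among 10365 tested genes with a 3′UTR, 11.2% held the let-7 match, 27.1% the miR-16 match and 4.79% both. The median 3′UTR of those genes was 1315 bases, so these shares are not those of 3′UTRs as long as that of Slc30a1. Slc39a10 held 1 miR-16 match at base 1892 of 2409. Mt1 held 1 miR-16 match in its longest annotated 3′UTR but none in the 134 bases of its principal transcript. Mt2, Mtf1 and Slc39a14 held none.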

How the data were processed

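RNA-seq of 2 libraries of mouse FAPs in adipogenic medium, 1 PRP and 1 control, was used. Per the labels, TRIzol served for RNA extraction and a stranded mRNA kit for library construction. Reads were trimmed by the authors with fastp 0.23.4, and they aligned them with STAR 2.5.3a to mm10 and counted them with featureCounts, and the deposited values are FPKM. The annotation release, the strand setting and the treatment of reads shared between genes are not given in the sources used here.

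Whole reads were recovered from FPKM with the merged exon lengths of GENCODE M21. In 26398 of 28152 genes above 0 with a length (93.8%) they were whole in both libraries within 0.001 reads. Because 79.3% and 80.3% of read numbers up to 8 were even, reads were divided by 2 to give fragments, and exact Clopper-Pearson 95% intervals of ratios and exact Poisson intervals of levels were computed from fragments. They cover counting error only. Whether duplicate fragments were removed is not given in the sources used here, so fragments need not be independent molecules. Log2 differences are log2(FPKM + 1) in PRP minus control, which understates low genes. Tested genes had a mean level of 1 FPKM or more (13401 genes), and the threshold was 2-fold. With 1 library per group no p-value was computed.

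The members, the lists and the rule for naming genes were chosen with earlier results of these data known. All 6 members are named, as are Mt3, Mt4 and ZIP and ZnT genes with a mean level of 1 FPKM or more, and of other lists those at least 2-fold different. Flanking and overlapping genes, cell markers and the 6 regulators are named to describe a result, and Slc40a1 and Lif were named after their values were seen. The ratios of Nfe2l2 and Stat3 were likewise added after their values were seen. For Mt1 and Mt2 the 3 most alike genes are named. Alternatives were a pseudocount of 0.1 or 5, a filter at 5 FPKM or none, rescaling to a common sum with and without mitochondrial and the 50 most abundant genes, centring on the median gene, thresholds of 1.5 and 4, and intervals on reads. The principal transcript length was added after seeing the data. Python 3.11.15, NumPy 2.4.6, pandas 2.3.3, SciPy 1.17.1 and matplotlib 3.10.9 were used, and the procedures were tested on simulated data.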

Additional observations from a re-analysis of the deposited data

How the results depend on the processing

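Of the values recomputed under an alternative, 101 moved by less than counting error (the width of 1 arm of the 95% interval on the log2 scale, and for a list the median of its genes' values) and 5 by more. This tolerance is wide for low genes. Some of the 101 could not move, since a filter leaves a gene's own value as it is. Likewise, a gene that does not pass 2-fold cannot pass 4-fold. Among the 101, Slc30a1 went from 0.23 to 0.09 with a pseudocount of 5, the ZnT median from -0.16 to -0.06 without a filter, the IL-6 and STAT3 median from 0.10 to 0.20 without a filter and to 0.03 with a filter at 5 FPKM, and the median of the 6 regulators went from 0.02 to -0.01 on rescaling without mitochondrial and the most abundant genes. A pseudocount or a filter cannot change the direction of a gene, whereas rescaling and centring can. All 6 genes stayed higher with PRP under each rescaling and under the centring. Over all alternatives that kept them, the log2 differences were 0.03 to 0.06 for Mt1, 0.44 to 0.47 for Mt2 and 0.03 to 0.08 for Mtf1. They were 0.09 to 0.33 for Slc30a1, 0.03 to 0.07 for Slc39a10 and 0.09 to 0.22 for Slc39a14. None passed 1.5-fold, 2-fold or 4-fold on the log2(FPKM + 1) scale. With the filter at a mean FPKM of 5, the median log2 difference of the ZIP genes was -0.13 in place of 0.12, that of the glucocorticoid response 0.32 in place of 0.12 and that of the NRF2 targets 0.94 in place of 1.12. This filter leaves fewer genes in these 3 lists, with Mt1 and Mt2 alone of the 6 genes and no ZnT gene, so those have no value there. With the principal transcript length, Mt2 was 2.23 times Mt1 with PRP and 1.67 times in the control, because Mt1 then has a shorter length. The interval left out 1 for the same number, 3 genes, on reads and after rescaling, where the lower bound of Slc30a1 was 1.004. No paired analysis was possible because 1 library stands for a group. For the same reason no library could be left out, and the spread between cultures is unknown. Depth limits Slc30a1 most, with 282 reads in the control.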
